A study of Arabidopsis thaliana with 8 samples.

Results

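Homeobox and homeodomain-like transcription factor genes are described here by the m6A-bound regions called on their transcripts in Arabidopsis leaves. The members were the nuclear protein-coding genes whose annotated product contains the word homeobox or homeodomain. Of 208 such genes, 11 were left out because they belong to the clock or trichome lists (LHY, LUX, 7 REVEILLE genes, GL2 and TRY), which left 197 of the 27444 nuclear protein-coding genes. The homeobox classes held 109 of these. The other 88 are annotated only as homeodomain-like, a label that also covers MYB, GARP and trihelix proteins, whose DNA-binding helices fold in a similar way.

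Leaves 5 to 9 of soil-grown Col-0 plants, 4 weeks old and grown at 22 °C under long days (16 h light, 8 h dark), were taken 4 h after first light and profiled by miCLIP-seq, from 7 µg of poly(A)+ RNA per replicate. In this assay an antibody against N6-methyladenosine (m6A) is crosslinked to RNA with ultraviolet light and the bound RNA is sequenced. The genotypes were wild-type (WT) and ABI3:MTA (mta), in which the ABI3 promoter, known for its activity in embryos and seeds, drives MTA, a catalytic subunit of the m6A writer. Each genotype had 2 m6A-bound libraries with a peak list, and nothing in the labels says whether they came from separate plants. The supernatant libraries of both genotypes were not analysed here.

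Homeobox proteins bind DNA through the homeodomain, a fold of helices. In plants they form classes with further domains. HD-ZIP proteins add a leucine zipper through which they dimerise, and those of subclasses III and IV also carry a lipid-binding START domain. KNOX and BEL1-like proteins (together the TALE group) work as heterodimers in meristems and in leaf patterning, WOX proteins maintain stem cells, and zinc finger-homeodomain (ZF-HD) proteins pair through their zinc fingers. In leaves HD-ZIP III proteins specify the upper side and HD-ZIP IV proteins the epidermis. m6A itself is a mark that YTH-domain proteins bind, and in plant mRNAs it is concentrated near the stop codon and in the 3' UTR.

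The sequences below are the RRACH sites nearest to the centre of the regions called in both libraries of a genotype, or, for ATML1, in both genotypes. RRACH is the textbook m6A consensus of 5 bases, and stands for 12 strings: a purine (A or G), another purine, adenine, cytosine and then any base but guanine. Each line shows 29 bases of the mRNA strand, 5′ to 3′, with the consensus in capitals. The build is TAIR10 (RefSeq TAIR10.1). They are examples from the 21 such sites located. Peaks were given to genes and placed by their midpoints, and not by these sites. A match is a description of the letters, and not a mapped modified base.
PHB: tttgaaattcgaGGACCaatatgtaatat
REV: atttacgttagaGAACTcaaatttttggt
BEL1: tggaggattggtGGACAaggagatattat
BEL10: tttgtgtatagtAGACTcttaagccaaat
BLH3: actttaggtgttAGACTttacatttgtat
BLH7: ttttgtgaaagtAAACCcaaaaaacgaaa
BLH4: tattcctgataaGAACActtctttctccg
KNAT4: ccacacaaaattAAACCccaaagcatgat
WOX13: tcattttcagagAAACAtttacatggatt
AT1G17520: caggaactgtttGGACAaaaaatgacact
AT3G24120: attattcgatacAAACTtgtcatcacatt
UNE16: aactctgtcatcAAACTtgtcttagcgtc
HAT3: atattgttgaacGGACTtggaagttcttt
ATML1: gcgtctactgtgAAACTccttgttattaa

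Of the 197 genes, 54 had a peak midpoint in a same-strand exon in at least 1 list and 143 had none. Peaks on these genes were called mostly in WT. WT replicates 1 and 2 had a peak on 40 and 32 members, and mta replicates 1 and 2 on 6 and 10. The genotypes did not overlap, with means of 36 ± 5.66 in WT and 8 ± 2.83 in mta (SD, n = 2 each). The share of all nuclear protein-coding genes with a peak was 27.1% and 20.3% in WT and 5.62% and 6.01% in mta, so the members' 20.3%, 16.2%, 3.05% and 5.08% followed the lists as a whole. Members made up 0.538% and 0.574% of the genes with a peak in WT and 0.389% and 0.606% in mta, and by this measure the genotypes overlapped. With 2 libraries against 2, an exact permutation test cannot give a p below 0.333, and no test was made over the members.

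The excess in WT was not kept when the lists, which held 8973, 6584, 1934 and 2092 peaks, were cut to equal length. With every list shortened to its 1934 highest-scoring peaks, a mean of 5.5 members had a peak in WT and 7.5 in mta. This cut drops low-ranked peaks by construction, and the share of all genes was not computed for the shortened lists. The score is the authors' own value for a peak on a scale that no header states, and percentiles below are ranks of that score within 1 list. Member peaks ranked at a median percentile of 37.4 and 48.4 in WT replicates 1 and 2, and of 47.2 and 73.3 in mta. A missing call does not show that m6A was absent, and RNA levels are not in the lists. In such bulk samples a transcript carried by fewer cells cannot be told apart from one with less RNA per cell. The 9 leaf and seed marker genes examined (RBCS1A and CRA1 among them) had a peak in 0 lists, so the lists do not check the tissue.

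In both WT lists, 26 members (13.2%) had a peak, against 18.9% of all nuclear protein-coding genes. Of these 26, 23 had no peak in either mta list, which is 88.5%, against 74.1% of all genes with a peak in both WT lists. The difference was not tested. WT peaks of both replicates overlapped by at least 1 bp in 23 of the 26 members, against 98.5% of all such genes. The exceptions were BLH1, AT1G49010 and AT4G12670, where the replicates had peaks in different parts of the transcript. The 3 genes with an mta peak as well, BEL1, KNAT4 and AT4G37180, each had it in mta replicate 1 alone, and without that library 26 of 26 had none. These 3 are 1.52% of the members. Over all genes 4.9% had peaks in both WT lists and in mta, and 2.96% in both WT lists and 1 mta list. A further 16 members (8.12%, against 8.25% of all genes) had a peak in 1 WT list and none in mta. Of these, 11 were in replicate 1 (5.58% against 7.17%) and 5 in replicate 2 (2.54% against 1.07%). Another 4, ATHB-1, ATML1, HAT22 and KNAT3, had peaks in 1 WT list and in mta (2.03% of the members against 1.31%). No member had a peak in all 4 lists, a pattern found in 1.94% of all genes. For the 201 bZIP and bHLH transcription factor genes, chosen by product text, 34 (16.9%) had a peak in both WT lists and 22 of those (64.7%) had none in mta. The difference from the homeobox genes was not tested.

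**Figure D1:**
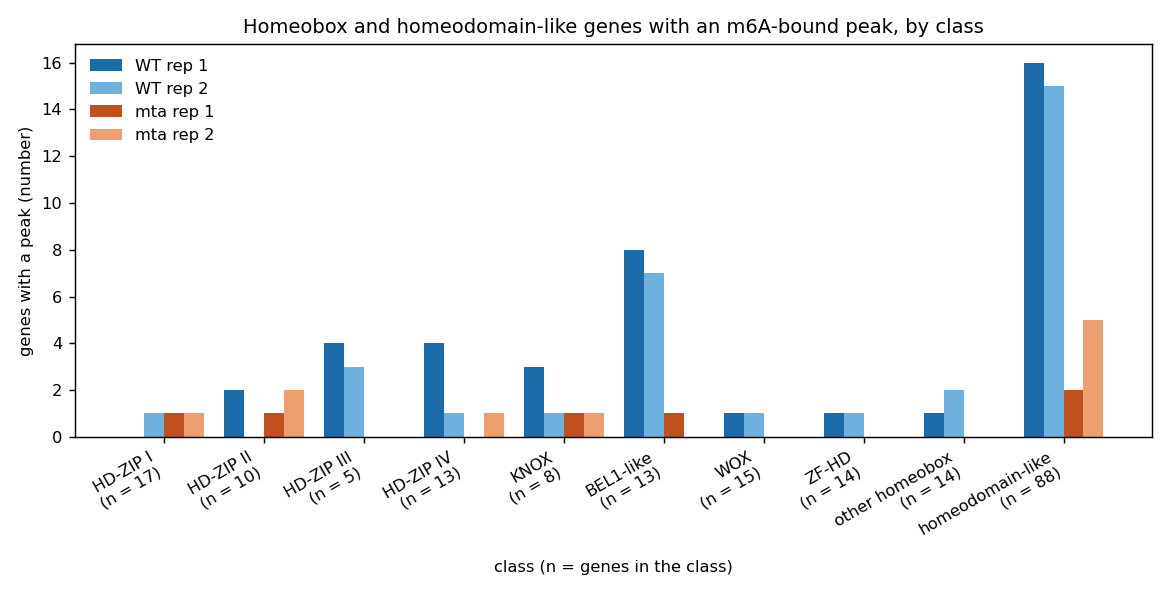
Number of genes with a peak (y axis) in each of the 4 libraries (bars), for the 10 classes of homeobox and homeodomain-like genes (x axis, with the number of genes in each class). In the BEL1-like class 8 and 7 genes had a peak in WT and 1 and 0 in mta, while in the HD-ZIP I class no library had more than 1.

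Counts by class are small, were not tested, and are given beside the share of all genes. Each class holds only the genes that the product-text rule took, and can lack known genes of that class. HD-ZIP III mRNAs are also cleaved through the microRNA miR166. Of the 5 genes, 3 had a peak in both WT lists (18.9% of all genes), 1 in WT replicate 1 alone and 0 in mta (8.58%). PHB, which promotes upper-side fate in leaf primordia, had the highest-ranked peak of any member in WT replicate 1, at chr2:14639352-14639568 with a score of 135 (percentile 98.2). WT replicate 2 had 2 narrower peaks on PHB inside that span, at chr2:14639366-14639442 and chr2:14639466-14639539, with scores of 42 and 29 (percentiles 80.2 and 48.4). The GGACC site of PHB shown above lies at chr2:14639414-14639442 on the minus strand, with its central A 120 nt past the stop codon. Both replicates thus called the same stretch of the PHB 3' UTR, which is 225 nt long.

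REV, which acts with PHB in leaf polarity and in vascular and meristem development, had its peaks at chr5:24401936-24402008 and chr5:24401954-24402004 with scores of 49 and 21 (percentiles 47.3 and 18.1). Their midpoints were 39 and 46 nt past the stop codon, and the GAACT site lies at chr5:24401962-24401990 on the plus strand. PHV, the closest relative of PHB, had peaks at chr1:10796182-10796279 and chr1:10796187-10796244 with scores of 49 and 15, centred 97 and 112 nt past the stop. No RRACH string lay within 50 nt of either PHV midpoint. ATHB-15 (CORONA) had a peak in WT replicate 1 alone, 73 nt past the stop with a score of 31, and HB-8, a gene of the procambium, had none. On the 4 genes with a peak the midpoints thus lay between 39 and 144 nt past the stop, in 3' UTRs of 202 to 262 nt.

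BEL1-like genes were the homeobox class with the most members in both WT lists. Of 13 genes, 9 had a peak in WT (28.5% of all genes), 6 of them in both lists (18.9%), and 1 had a peak in mta (8.58%). BEL1, which controls ovule integument identity, had peaks at chr5:16583846-16583926 in WT replicate 1 (score 76, percentile 74.2) and at chr5:16583843-16583920 in replicate 2 (score 35, percentile 62.9). WT replicate 2 had another peak on BEL1, 31 nt past the stop, with a score of 17. BEL1 also had a peak in mta replicate 1, at chr5:16583872-16583924 (score 35, percentile 53.3), inside the WT replicate 1 region. The 3 overlapping midpoints lay 116, 112 and 128 nt past the stop codon, and the GGACA site at chr5:16583891-16583919 on the plus strand is within all 3 peaks. The other 5 genes of this class found in both WT lists had no mta peak.

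BLH7 had nearly coincident peaks at chr2:7101387-7101496 and chr2:7101386-7101494, with scores of 71 and 35 (percentiles 71.6 and 62.9) and midpoints 48 and 50 nt past the stop. On BLH3 the peaks were at chr1:28299845-28299961 and chr1:28299859-28299955, centred 192 and 188 nt past the stop, with scores of 26 and 42 (percentiles 14.1 and 80.2). BEL10 was called 159 and 162 nt past the stop with scores of 49 and 28. BLH4 (SAWTOOTH 2), which with BLH2 (SAWTOOTH 1) restrains leaf margin growth, had its shared peak inside the coding sequence, 26 and 27 nt before the end of the stop codon, and its GAACA site lies at chr2:10107974-10108002 on the minus strand. Replicate 2 also had a BLH4 peak 332 nt before it. BLH1 had a 3' UTR peak in replicate 1, 215 nt past the stop, and a coding-sequence peak in replicate 2, 1912 nt before it. BLH6 and RPL had a 3' UTR peak in WT replicate 1 alone, at 77 and 39 nt past the stop, and BLH2 a coding-sequence peak in replicate 2 alone. RPL (PENNYWISE) is a partner of meristem KNOX proteins. ATH1 and 3 further genes of the class had no peak.

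Among the 8 KNOX genes, 3 had a peak in any list (30.9% of all genes). These were KNAT3, KNAT4 and KNAT5, which belong to the class II genes active in mature organs. KNAT7, also of class II, and the meristem genes STM, KNAT1, KNAT2 and KNAT6 had none. KNAT4 had peaks in 3 lists. WT replicate 1 had chr5:3513063-3513138 (score 18, percentile 5.0), WT replicate 2 had chr5:3513040-3513101 (score 29, percentile 48.4) and chr5:3513165-3513262 (score 14, percentile 1.8), and mta replicate 1 had chr5:3513181-3513241 (score 14, percentile 1.9). The last of these lay within the second peak of WT replicate 2, at 244 against 247 nt past the stop. The nearest RRACH site of KNAT4, at chr5:3513106-3513134 on the plus strand, is 38 nt from the centre of the overlap of the WT peaks and outside it. KNAT3 had a 3' UTR peak in WT replicate 1 (score 20, 103 nt past the stop) and a coding-sequence peak in mta replicate 2 (score 31, 643 nt before it), so the genotypes were not called at the same place. KNAT5 had peaks at 184 and 299 nt past the stop in WT replicate 1 alone, with scores of 62 and 31.

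Of the WOX and the ZF-HD genes, 1 each had a peak in any list, against 30.9% of all genes. WOX13 was the single gene with a peak of the 15 WOX genes, at chr4:16875610-16875660 and chr4:16875612-16875667 in WT, with scores of 43 and 28 and midpoints 179 and 174 nt past the stop. WUS, the stem cell regulator that names the class, had none. HB22 (AT4G24660, also ZHD2, and not the HD-ZIP I gene AT2G36610 of the same symbol) was the single ZF-HD gene of 14, at chr4:12724797-12724868 and chr4:12724731-12724868 with scores of 40 and 24. These midpoints fell outside the transcript with the longest coding sequence, for which no 3' UTR is annotated, so they were given no feature. Of the 14 other homeobox genes, AT5G58920 had the lowest-ranked pair, with scores of 14 in both WT lists and peaks at chr5:23794040-23794114 and chr5:23794039-23794132. RLT1, a partner of chromatin remodelling ATPases, had a coding-sequence peak in WT replicate 2 alone.

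**Figure D2:**
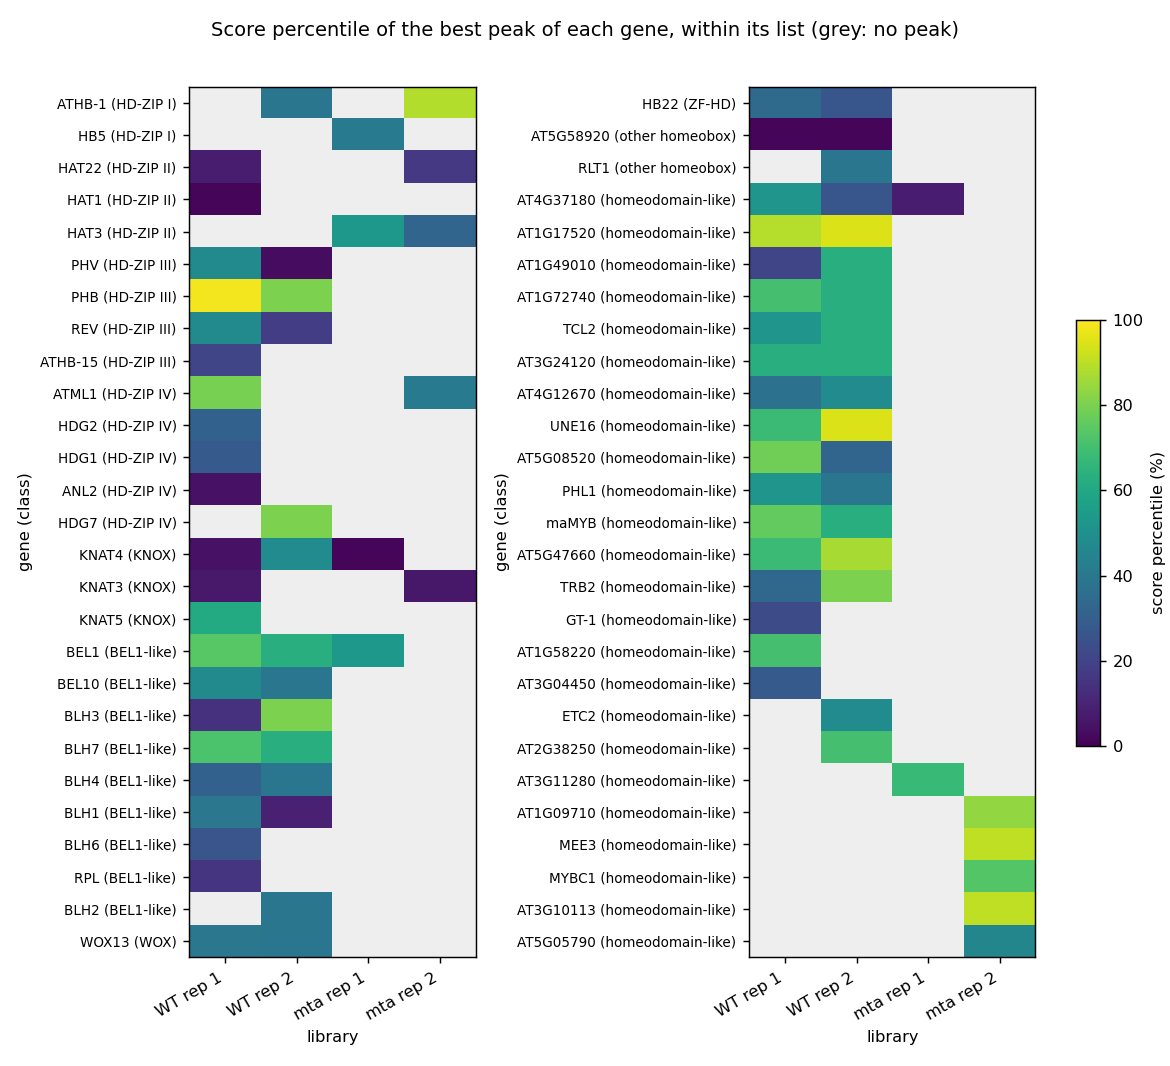
Score percentile (colour, %) of the best peak of each of the 54 genes with a peak (rows, with class) in each of the 4 libraries (columns); grey marks no peak. HD-ZIP III genes are coloured in the WT columns alone, and no row is coloured in all 4 columns.

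Of the 13 HD-ZIP IV genes among the members, 4 had a peak in WT replicate 1 and 1 in replicate 2, and none in both. Of all genes with a peak in WT, 66.5% had one in both lists, and of the members 56.5%. ATML1, a regulator of epidermal identity, had 2 peaks in WT replicate 1, at chr4:11560542-11560593 and chr4:11560631-11560733 with scores of 42 and 84 (percentiles 37.4 and 79.6). Its mta replicate 2 peak at chr4:11560645-11560723 (score 48, percentile 41.7) lay within the second of these, at 362 against 360 nt past the stop. The AAACT site of ATML1 is at chr4:11560650-11560678 on the plus strand. HDG1, HDG2 and ANL2, an anthocyanin and root epidermis gene, had a peak in WT replicate 1 alone, and HDG7 in replicate 2 alone with a score of 42 (percentile 80.2). The peaks of HDG2 and HDG7 lay outside the chosen transcript.

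HD-ZIP I and II genes, many of which respond to light, shade or abscisic acid, included none with a peak in both WT lists among 27 genes, against 18.9% of all genes. HAT3, an HD-ZIP II gene of the shade response and leaf polarity, was the single member with a peak in both mta lists, and it had none in WT. Its peaks at chr3:22320691-22320743 and chr3:22320692-22320741 had scores of 35 and 46 (percentiles 53.3 and 32.6), and both midpoints lay 71 nt past the stop. The GGACT site is at chr3:22320713-22320741 on the minus strand. That pattern occurred on 0.67% of all genes and on 0.508% of the members, and overlapping mta peaks on 94.4% of all genes with a peak in both mta lists. ATHB-1 (AT3G01470), an HD-ZIP I gene, had a peak in WT replicate 2 at chr3:182526-182584 (score 28, percentile 39.4) and in mta replicate 2 at chr3:182530-182579 (score 80, percentile 88.6), both centred 93 nt past the stop. HAT22 had a coding-sequence peak in WT replicate 1 and a 3' UTR peak in mta replicate 2, 264 nt past the stop. HB5 had a peak in mta replicate 1 alone, in the 5' UTR with a score of 30, and HAT1 in WT replicate 1 alone with a score of 14.

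Among the 88 homeodomain-like genes, 13 had a peak in both WT lists (18.9% of all genes). For 12 of these 13, mta gave no peak (74.1% of all genes in both WT lists). AT1G17520 had the highest mean percentile of all members in both WT lists, 91.7, with peaks at chr1:6024750-6024833 and chr1:6024769-6024838 and scores of 101 and 50. Its GGACA site lies at chr1:6024785-6024813 on the minus strand, 160 nt past the stop. AT1G17520 carries the product name homeodomain-like/winged-helix, as do AT1G72740 and TRB2, which binds telomeric repeats. All 3 genes of that name had overlapping WT peaks and none in mta, a group singled out after the values were seen. AT1G72740 had peaks of 165 and 164 bp with scores of 70 and 35. TRB2 had scores of 39 and 42, with midpoints 259 and 247 nt past the stop in a 3' UTR of 275 nt.

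UNE16 had peaks at chr4:7936724-7936807 and chr4:7936725-7936831 with scores of 69 and 50 (percentiles 68.1 and 94.6), centred 98 and 86 nt past the stop, and a further coding-sequence peak in replicate 2. AT3G24120 had peaks at chr3:8705781-8705903 and chr3:8705778-8705869 with scores of 63 and 35, centred 83 and 101 nt past the stop. The printed stretches of these genes, at chr4:7936761-7936789 and chr3:8705812-8705840 on the minus strand, share the run caaacttgtc of 10 bases. It was the longest run among the 210 pairs of the 21 located stretches, not all of which are printed. Of the other pairs, 1 shared 8 bases and the rest at most 7. Every stretch was chosen around an RRACH string, and the run holds the AAACT on which both of these are centred. AT5G47660 had the most peaks of any member, 2 and 3 in WT. A coding-sequence peak was called in both replicates, at chr5:19314359-19314422 and chr5:19314332-19314406, with scores of 69 and 35 (percentiles 68.1 and 62.9) and midpoints 245 and 267 nt before the stop. A 3' UTR peak was also called in both, at chr5:19314669-19314720 and chr5:19314674-19314732, with scores of 49 and 28 and midpoints 59 and 67 nt past the stop. The third WT replicate 2 peak, at chr5:19314734-19314802, had a score of 43 (percentile 86.9).

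The remaining genes in both WT lists covered several families. PHL1, which acts with PHR1 in phosphate starvation, had scores of 53 and 28, with midpoints 32 and 36 nt past the stop. maMYB, a membrane-anchored MYB protein, was called far from the stop, at 648 and 619 nt in a 3' UTR of 759 nt, with scores of 77 and 35. AT5G08520 was called 188 and 189 nt past the stop with scores of 82 and 27. TCL2, a single-repeat MYB that represses trichome initiation, had scores of 53 and 35, centred 61 and 59 nt past the stop, and no mta peak. ETC2, a neighbour and relative of TCL2, had a coding-sequence peak in WT replicate 2 alone, with a score of 29. AT1G49010 had a 3' UTR peak in replicate 1 and a 5' UTR peak in replicate 2. AT4G12670 had coding-sequence peaks 646 and 1411 nt before the stop. AT4G37180 had overlapping 3' UTR peaks in WT, 99 and 115 nt past the stop with scores of 53 and 24, and a coding-sequence peak in mta replicate 1, 931 nt before it with a score of 17. In WT replicate 1 alone GT-1, a trihelix factor that binds light-responsive promoters, AT3G04450 and AT1G58220 had a peak. In replicate 2 alone AT2G38250 had one, with a score of 36 (percentile 70.7).

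In mta, 15 members (7.61%) had a peak in either list, against a background of 8.58% of all genes. Of these, 8 (53.3%) had none in WT, against 27.7% of all genes with an mta peak. Genes with a peak in mta and none in WT were 4.06% of the members and 2.38% of all genes. Those with it in 1 mta list were 3.55% and 1.71%. Besides HAT3 and HB5 the 8 members were homeodomain-like genes. MEE3, a RADIALIS-like protein, had a 3' UTR peak in mta replicate 2 with a score of 83 (percentile 90.6). MYBC1 had 2 peaks there, each with a score of 64, and AT1G09710 and AT5G05790 had coding-sequence peaks with scores of 73 and 50. AT3G11280 had a 3' UTR peak in mta replicate 1 with a score of 41. AT3G10113 had a coding-sequence peak with a score of 83, whose 65 bases have an exact second copy in EPR1 (RVE7, AT1G18330). Reads could come from either gene, and this call is uncertain. Of the 101 member peaks, it was the 1 with more than 1 exact copy in the nuclear genome. The other 7 members with an mta peak also had one in WT, a pattern of 3.55% of the members and 6.21% of all genes. The WT and mta peaks overlapped in 4 of these 7 (57.1%), namely ATHB-1, ATML1, KNAT4 and BEL1, against 61.4% of all genes with a peak in both genotypes. Of the 15 genes, 9 had their mta peak in replicate 2 alone and 5 in replicate 1 alone. Only 1 of the 15, HAT3, was in both mta lists, against 836 of the 2356 genes with an mta peak. Replicate 2 differs from the other lists in its lowest score, 20 against 13, and in how its peaks are named.

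Within transcripts, WT peaks of the members lay mainly in the 3' UTR. In WT replicates 1 and 2, 37 of 42 and 26 of 37 placed peaks (88.1% and 70.3%) were there, against 91.5% and 90.8% over all genes. In mta it was 4 of 6 and 6 of 11 (66.7% and 54.5%), against 53.6% and 44.6%. WT libraries averaged 79.2% ± 12.6 and mta libraries 60.6% ± 8.57 (SD, n = 2 each). The gap between genotypes was wider over all genes, at 91.1% ± 0.474 and 49.1% ± 6.34. WT replicate 1 had 5 coding-sequence peaks and replicate 2 had 10. Of those 10, 2 met a peak of replicate 1, on BLH4 and AT5G47660, while 22 of the 26 3' UTR peaks of replicate 2 (84.6%) did. Over all genes the corresponding shares were 36.3% and 93.0%.

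**Figure D3:**
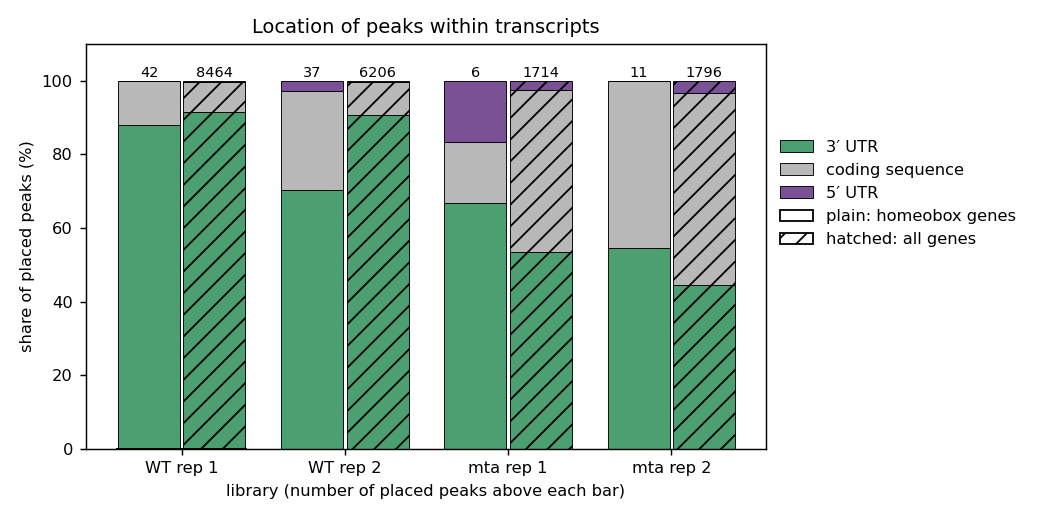
Share of placed peaks (y axis, %) in the 3' UTR, coding sequence and 5' UTR for the homeobox and homeodomain-like genes (plain bars) and all protein-coding genes (hatched bars) in each library (x axis), with the number of placed peaks above each bar. Both WT libraries have a lower 3' UTR share in the homeobox genes, and both mta libraries a higher one, on 6 and 11 peaks.

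The median distance of the 3' UTR peaks past the stop codon was 98 and 108 nt in WT replicates 1 and 2 and 99.5 and 95 nt in mta, against 119, 118, 115 and 115 nt over all genes. In WT it ran from 31 nt, on BEL1, to 648 nt, on maMYB. The WT replicates averaged 103 ± 7.07 nt for the members (SD, n = 2). With every list shortened to its 1934 highest-scoring peaks, the average was 158.25 nt, from a mean of 5.5 members per WT library. With scores of at least 50 it was 109.25 nt, from a mean of 9 members.

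**Figure D4:**
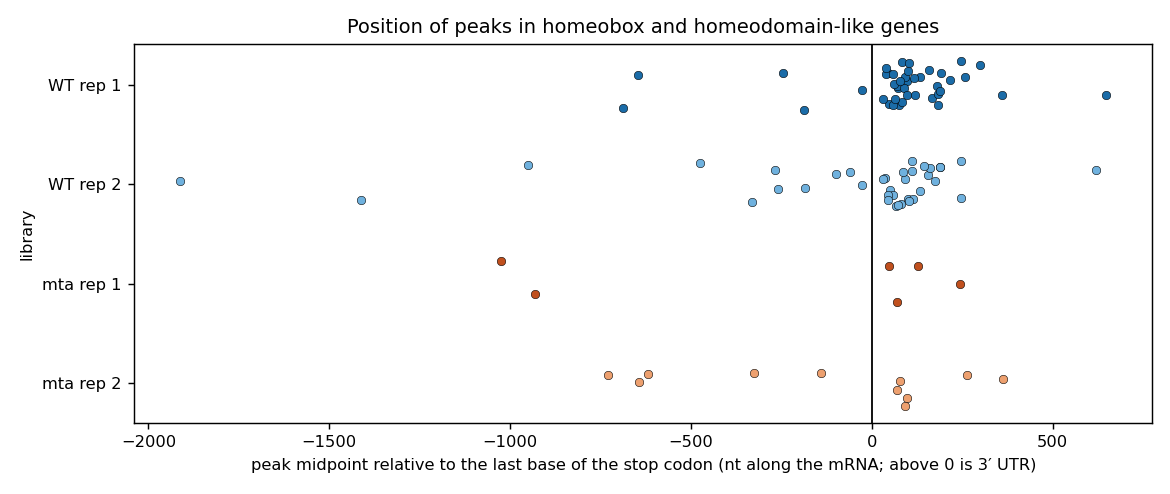
Position of each placed peak of the homeobox and homeodomain-like genes (points), in nt along the mRNA from the last base of the stop codon (x axis), in the 4 libraries (rows; the vertical scatter within a row has no meaning). The 3' UTR points of WT start at 31 nt and have medians of 98 and 108 nt, with maMYB farthest at 648 and 619 nt.

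The RRACH consensus lay within 50 nt of 39 of 45 and 34 of 39 member peaks in WT (86.7% and 87.2%). In mta it lay near 5 of 6 and 7 of 11 (83.3% and 63.6%). Over all genes the shares were 77.0% and 77.3% in WT and 72.0% and 73.6% in mta. The search was made on the mRNA strand alone. As a background, 68.2% of all 101-nt tiles of 3' UTRs and 74.0% of those of coding sequences held RRACH. URUAY is a plant motif reported near m6A that stands for 4 strings (uracil, a purine, uracil, adenine, a pyrimidine). It lay near 53.3% and 41.0% of WT member peaks, against 57.1% and 56.9% over all genes. Of the tiles, 50.6% in 3' UTRs and 22.9% in coding sequences held URUAY. Coding sequence held 11.9% and 27.0% of placed WT member peaks, against 8.23% and 8.78% over all genes. The strings of these motifs can overlap by 1 base, a uracil that ends RRACH and starts URUAY. Of the 21 sites located at the overlap of lists, AAACT and AGACT were the commonest strings, with 5 each.

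Members with a peak in both WT lists had longer transcripts than members without any. The median transcript of the 26 genes was 1884 nt with a 3' UTR of 282 nt, and that of the 143 genes without a peak was 1372 nt with a 3' UTR of 231 nt. Over all genes the corresponding medians were 1632.5 and 276 nt with peaks in both WT lists, and 1389 and 194 nt without. No test was made of these differences, and whether length moved with RNA level is not known from the lists.

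A list of 34 partners and neighbours of the homeobox pathways, 33 of them protein-coding, was also examined. Peaks were called on 11 and 8 of them in WT (27.1% and 20.3% of all genes) and on 1 and 1 in mta (5.62% and 6.01%). In both WT lists were 7 (18.9%), and 5 of these had no mta peak (74.1% of all genes in both WT lists). These counts were not tested and lie near the shares of all genes. The 5 were YAB1, YAB2 and YAB5, YABBY genes that act on the lower leaf side, and the corepressor genes TPL and TPR4, whose proteins bind WUS. TPL scored 144 and 50 in WT, YAB5 77 and 42 for its higher peak in each list, and YAB2 69 and 29. The TPR4 midpoints lay outside the chosen transcript. AGO1, the slicer loaded with miR166, and TPR2 had 3' UTR peaks in both WT lists and a coding-sequence peak in 1 mta list each. AGO1 also had a coding-sequence peak in WT replicate 1, with a score of 20. TPR1, ARF3, ARF4, HAM1 and SE had a peak in 1 WT list alone. AS1, AS2, AGO10, the ZPR genes that dimerise with HD-ZIP III proteins, the OFP genes that bind TALE proteins, the mini zinc finger genes MIF1 to MIF3 and the CLV genes were among the 22 without a peak. ZPR4 is annotated as a noncoding RNA, and peaks were given to protein-coding genes alone, so it could have none.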

How the data were processed

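Each deposited peak list has 6 columns (position, name, score, strand), and the score is the authors' whole-number value on a scale that no header states. STAR 2.4.0, MACS2 and TAIR10 are named in the submitters' processing notes, with no version, control or threshold for MACS2. Per the peak names, peaks were called on each library and strand apart. The lists hold no read counts, so depth is unknown, and the number of peaks does not measure it.

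Gene models, names and sequences came from the RefSeq copy of TAIR10 (TAIR10.1). A peak was given to the gene whose same-strand exon held its midpoint, and midpoints shared by exons of several genes were left out (0 in the members; 1 antisense peak on PC-MYB1 was also left out). Features refer to the transcript with the longest coding sequence. RVE3, RVE5 and RVE6, unnamed in this annotation, were left out by locus. Classes within the members were assigned by hand from gene names. Members, classes and lists were chosen with earlier results of these data known. Text names every member with a peak in mta or in both WT lists, and full values are given for up to 3 of each class with the highest mean WT percentile. Other coordinates, such as those of AT3G24120, were added after the values were seen. Members with a peak in 1 WT list alone are named for completeness, beyond the 5 that the rule takes. Groups were compared by counts and shares beside all nuclear protein-coding genes, without set tests. Peak placement was tested on simulated data. Python 3.11.15, pandas 2.3.3, numpy 2.4.6 and scipy 1.17.1 were used. Alternatives covered the score threshold, list length, peak assignment, membership, gene model, motif and each replicate left out.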

Additional observations from a re-analysis of the deposited data

How the results depend on the processing

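The counts rest on the length of the lists and on who counts as a member, and several shares rest on few peaks. With scores of at least 50, a mean of 9 ± 9.90 members in WT and 3 ± 4.24 in mta (SD, n = 2) had a peak (a difference of 6). In both WT lists were 2 members, of which 100% had none in mta. The highest scores of the lists were unlike, at 161 and 58 in WT and 137 and 203 in mta. Member scores reached only 50 in WT replicate 2 and 41 in mta replicate 1, so this cutoff kept few or none there. The share of all genes at this cutoff was not computed. Under that threshold the 3' UTR share was 96.9% in WT and, from mta replicate 2 alone since replicate 1 had no such member peak, 42.9% in mta, and RRACH lay near 93.8% of WT peaks. With every list shortened to 1934 peaks, WT had a mean of 5.5 members, and the difference from mta turned to -2. Then 2 members were in both WT lists, of which 100% had no mta peak, the WT 3' UTR share was 92.9%, the median distance past the stop 158.25 nt, and RRACH lay near 100% of WT peaks. The shortening was by score, so low-ranked peaks drop out by construction. Without genes whose product says homeodomain-like, the means were 20.5 and 4.5 (a difference of 16), 13 members were in both WT lists, the mta 3' UTR share was 77.5%, the distance 112 nt and the RRACH share 85.2%; this alternative has fewer genes by construction.

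RRACH lay near 69.2% of WT peaks within 25 nt and 95.4% within 100 nt, and DRACH near 91.9% within 50 nt. Leaving out each library in turn, the WT mean ran from 32 to 40 members, the mta mean from 6 to 10 and their difference from 24 to 32. Members in every remaining WT list numbered 26 to 40, and the share without an mta peak ran from 85.0% to 100%. It was 100% without mta replicate 1, which alone held the mta peaks of BEL1, KNAT4 and AT4G37180. Pairing same-numbered libraries (the replicate block) gave the same mean difference, 28 ± 8.49 members (SD, n = 2 pairs), and the labels do not say that a number marks a shared batch. Assignment by any exon overlap, ambiguous midpoints and the first-listed transcript moved no value they were run on beyond the replicate spread or, for counts, by over 1.5 times. Depth cannot be judged from peak lists.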
